A study of Homo sapiens with 27 samples.

Results

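Ribosome footprints were compared between IMR90 cells made senescent with etoposide and IMR90 cells held quiescent by contact inhibition. The comparison used 3 Ribo-seq libraries of each state, 6 of the 27 libraries of the study, chosen by their titles. IMR90 cells are fibroblasts from normal human fetal lung and are labelled wild type. Ribo-seq sequences the short mRNA fragments that translating ribosomes shield from RNase, so the count of a gene follows both its mRNA and the ribosomes on it. The etoposide cells had received 50 µM of the drug, which traps topoisomerase II on DNA and leaves double-strand breaks, in 3 treatments over 10 days. The quiescent cells are labelled contact-inhibited, a state in which cells stop dividing when they touch their neighbours. Both states were kept in DMEM with high glucose, 10% fetal bovine serum, non-essential amino acids and antibiotics with antimycotics, and their lysis buffer, made for polysomes, contained cycloheximide, which freezes ribosomes on mRNA. RNA-seq of the same states (3 libraries each), Ribo-seq of cycling cells (3 libraries) and Ribo-seq of cells irradiated to senescence (3 libraries) served as references. The irradiated cells had received 15 Gy and are labelled day 10. Libraries of cycling cells treated with 25 nM thapsigargin for 3 h were also in the fits. All states are the same cell line, and the labels do not say whether replicates came from separate cultures. The p-values thus measure only the spread between libraries, estimated jointly over all states in a fit and not from the 6 compared libraries alone.

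Senescence and quiescence are both non-dividing states. A quiescent cell can return to the cycle, whereas a senescent cell is held out of it after DNA damage, largely through p53 and its target CDKN1A, the inhibitor p21. Senescent fibroblasts are also known for the senescence-associated secretory phenotype (SASP), a release of chemokines, cytokines, growth factors and matrix proteases. A comparison with quiescent cells asks how the senescent state differs from another state without division.

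Of 19324 protein-coding gene IDs, 11779 had enough counts for the test. The quiescent libraries held 18934077, 17508672 and 19996104 gene counts and the etoposide libraries 6159333, 6980115 and 6165863. Unmapped reads were 14.6% to 21.0% of reads in the quiescent and 20.0% to 28.6% in the etoposide libraries. Reads that mapped to several places were 23.2% to 27.4% and 19.8% to 22.3%. Depth and mapping thus differed with the state. The part of depth was tested by thinning the quiescent gene counts to the etoposide depth, which left 4089 genes called against 4176 without thinning. Thinning draws from reads already assigned to genes, so the part of mapping was not tested. The etoposide libraries were close to each other, with Spearman correlations across genes of 0.992. Quiescent replicate 1 stood apart from quiescent replicates 2 and 3, with correlations of 0.979 and 0.964 to them, against 0.986 between those 2. It held fewer footprints on mRNAs of the endoplasmic reticulum (ER), the lysosome, the matrix and the mitochondrial genome. The summed footprints of 21 collagen genes were 12166 CPM (TMM-scaled counts per 1000000 counts) in replicate 1 against 28824 and 39429 CPM in the other quiescent libraries. RNA-seq of quiescent replicate 1 showed the same pattern, with 5407 CPM on the collagen genes against 12049 and 11664 CPM. Counts of these gene groups are therefore given with and without that footprint library.

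Footprints of 4176 of 11779 genes differed between the states at an adjusted p under 0.05 (edgeR's quasi-likelihood test), which is 35.5% of the genes tested. Of these, 2272 (19.3%) were higher and 1904 (16.2%) were lower after etoposide. The balance of directions turned with the libraries in the fit, with 1900 higher and 2189 lower for the 2 states alone and 2561 higher and 2702 lower without the thapsigargin libraries. Among the calls of at least 2-fold, 1380 were higher and 650 lower. The 3 etoposide and 3 quiescent libraries did not overlap for 54.3% of all genes tested, which is the share to hold beside each count of genes without overlap. The median log2 fold change over all genes tested was 0.01. Without quiescent replicate 1, 3745 genes were called, 2006 higher and 1739 lower, and 3622 genes were called in the same direction with and without it.

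**Figure D1:**
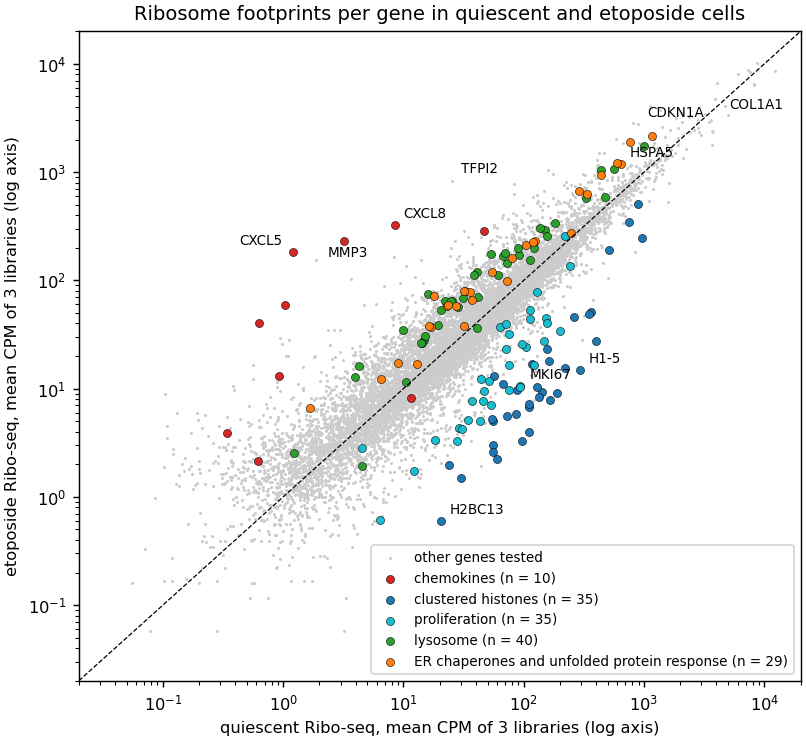
Mean Ribo-seq CPM of each gene in quiescent (x axis) and etoposide cells (y axis), 3 libraries each, both axes logarithmic; the dashed line marks equal levels. Of 10 chemokine genes 9 lie above the line, CXCL5 by a log2 fold change of 7.21, all 35 clustered histone genes lie below it, H2BC13 at -5.03, and 38 of 40 lysosome and all 29 ER genes lie above it.

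The genes of the cell division machinery had fewer footprints in etoposide cells than in quiescent cells, although both states are named as arrested. Whether all cells in the quiescent cultures had stopped dividing was not tested. Of 35 proliferation genes tested, 33 were lower and none was higher, with a median log2 fold change of -2.25. MKI67, the antigen Ki-67 that coats mitotic chromosomes, had 66.9, 133 and 80.3 CPM in quiescent replicates 1, 2 and 3 and 13.1, 9.79 and 8.83 CPM in the etoposide libraries (log2 fold change -3.14 ± 0.26 SE, adjusted p = 1.21e-06). LMNB1, the lamin B1 of the nuclear envelope whose loss is a known feature of senescence, had 79.8, 112 and 84.6 CPM against 12.4, 9.79 and 8.83 CPM (-3.16 ± 0.16, adjusted p = 1.07e-08). MYBL2, a transcription factor of the late cell cycle, had 4.68, 7.15 and 7.16 CPM against 0.700, 0.777 and 0.346 CPM (-3.34 ± 0.67, adjusted p = 0.00172). All 3 genes were low in every etoposide library, with no overlap. The 2 genes not called were E2F1, an S-phase transcription factor, at -0.66 (adjusted p = 0.101) and PCNA, the sliding clamp of DNA polymerases, at 0.21 (adjusted p = 0.230). The summed footprints of the list were 1024 to 1059 CPM in etoposide, 2501 to 3611 CPM in quiescent and 5488 to 5878 CPM in cycling cells, so the quiescent cells held a level between the other states. In bulk libraries, fewer dividing cells and less mRNA in each cell cannot be told apart.

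Replication-dependent histone genes gave the strongest falls among genes at 10 CPM or more. These intron-less genes lie in clusters, are transcribed in S phase, and supply new chromatin with histones H1, H2A, H2B, H3 and H4. All 35 clustered histone genes tested were lower after etoposide, without overlap between the states, and their median log2 fold change was -3.69. The 12 genes with the lowest log2 fold changes among called genes at 10 CPM or more were all histone genes, one of them, H2BC6 (-4.48), outside the list, and 33 of the 35 listed genes lie on chromosome 6, at chr6:26017032-27893891 (GRCh38.p14, gene positions from RefSeq). H2BC13 (ENSG00000185130) had 19.5, 23.8 and 17.9 CPM in quiescent cells and 0.700, 1.09 and 0 CPM in etoposide cells (-5.03 ± 0.40, adjusted p = 8.45e-07), and its change without etoposide replicate 2 was -5.84. H2BC14 had 94.7, 134 and 103 CPM against 4.72, 3.11 and 4.16 CPM (-4.79 ± 0.22, adjusted p = 4.80e-09). H1-5, a linker histone, had 244, 343 and 291 CPM against 15.9, 13.8 and 14.7 CPM (-4.30 ± 0.16, adjusted p = 1.12e-09). H2AC6 was the least changed member, with 961, 991 and 722 CPM against 459, 542 and 508 CPM (-0.83 ± 0.14, adjusted p = 5.92e-04). The list summed to 1613 to 1777 CPM in etoposide, 6866 to 8045 CPM in quiescent, 2657 to 2869 CPM in irradiated and 9466 to 11468 CPM in cycling cells. Against irradiated cells, 27 of the 35 genes were lower after etoposide, beside 21.8% of all genes called in that comparison. Histone genes have near-identical copies, and reads that map to several places are in no gene's count, so the level of a single copy is uncertain.

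H2B genes of these clusters are known for an octamer motif, ATTTGCAT, which the factor OCT1 binds at S phase. The motif, on either strand (reverse ATGCAAAT), was present in the 250 bases before the start site of 7 of 9 H2B genes (77.8%) with a promoter in RefSeq, in 8 of 23 other clustered histone genes (34.8%), and in 130 of 9686 promoters of tested genes (1.34%). Those 8 were all H2A genes, and whether any of them shares its match with a neighbouring H2B gene was not tested. Among the H2B genes, H2BC13 (-5.03) had no match, whereas H2BC11, which fell less (-2.79), had a match. The 3 windows below, each of 100 bases, are shown because they carry the motif, in capitals, before genes that fell by over 4 on the log2 scale. They are from GRCh38.p14 and are written 5′ to 3′ in the direction of the gene.
H2BC3 (chr6:26043780-26043879, minus strand): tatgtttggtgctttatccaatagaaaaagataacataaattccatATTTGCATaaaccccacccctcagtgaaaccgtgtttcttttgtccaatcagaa
H2BC7 (chr6:26199359-26199458, plus strand): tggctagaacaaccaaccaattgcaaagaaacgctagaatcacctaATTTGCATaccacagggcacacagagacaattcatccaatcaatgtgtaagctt
H2BC14 (chr6:27814922-27815021, plus strand): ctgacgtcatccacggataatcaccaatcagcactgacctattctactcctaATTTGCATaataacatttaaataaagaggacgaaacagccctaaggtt
The match lies 120, 111 and 48 bases before the start site in H2BC3, H2BC7 and H2BC14. H2BC3 had 48.1, 62.0 and 57.1 CPM in quiescent and 3.15, 2.33 and 2.25 CPM in etoposide cells (-4.43 ± 0.22, adjusted p = 9.21e-09). A match describes the letters of a promoter and shows no binding. For the proliferation genes, the cell cycle homology region motif TTTGAA (reverse TTCAAA) was in 9 of 27 promoters (33.3%) and in 8.59% of all promoters searched.

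Cyclin-dependent kinase inhibitors moved in different directions. CDKN1A (ENSG00000124762), which encodes p21, had 894, 738 and 1034 CPM in quiescent and 2883, 2687 and 2772 CPM in etoposide cells (1.65 ± 0.12, adjusted p = 4.84e-07). CDKN2C, encoding p18, had 12.9, 14.1 and 13.2 CPM against 1.92, 0.932 and 0.866 CPM (-3.43 ± 0.27, adjusted p = 8.38e-07). CDKN1B, encoding p27, had 71.3, 65.2 and 73.5 CPM against 31.0, 31.2 and 30.8 CPM (-1.18 ± 0.10, adjusted p = 1.83e-06). p21 was thus high, and p18 and p27 were low, in every etoposide library. CDKN1C, encoding p57, was lower as well (-1.80 ± 0.30, adjusted p = 4.45e-04). CDKN2A, whose mRNAs encode p16 and ARF, had 50.2, 43.9 and 75.0 CPM against 68.2, 57.2 and 47.5 CPM, and the difference, 0.03 ± 0.27 on the log2 scale, missed the threshold (adjusted p = 0.944). CDKN2B, encoding p15, was at 0.24 ± 0.26, also without a call (adjusted p = 0.511). The libraries of both states overlapped for these 2 genes. Of 22 arrest regulators tested, 6 were lower and 2 higher, a share called of 36.4% that is near the 35.5% of all genes. KLF4, a transcription factor linked to growth arrest, was lower (-1.85 ± 0.21, adjusted p = 1.95e-05), GAS6, a ligand of receptor tyrosine kinases first found in growth-arrested cells, was higher (1.58 ± 0.27, adjusted p = 6.28e-04), and TOB1, an antiproliferative factor, was higher (0.42 ± 0.13, adjusted p = 0.0206) but was not called without etoposide replicate 2 or 3 or quiescent replicate 3.

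Of 28 p53 target genes tested, 10 were higher and 1 was lower, with a median of 0.34. The share called, 39.3%, is near the 35.5% of all genes, of which 19.3% were called higher. GDF15, a secreted stress cytokine, had 30.9, 62.6 and 103 CPM in quiescent and 363, 374 and 388 CPM in etoposide cells (2.51 ± 0.31, adjusted p = 5.17e-05). FAS, a death receptor, had 13.96, 25.7 and 21.6 CPM against 78.2, 89.9 and 76.2 CPM (2.00 ± 0.18, adjusted p = 3.16e-06). MDM2, the ligase that degrades p53, had 280, 282 and 234 CPM against 512, 499 and 554 CPM (0.97 ± 0.10, adjusted p = 9.40e-06). All etoposide libraries were above all quiescent libraries for these genes. The member that fell was BAX, which opens the outer mitochondrial membrane in apoptosis (-0.31 ± 0.10, adjusted p = 0.0291), a call that was lost without etoposide replicate 1, 2 or 3 or quiescent replicate 3.

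**Figure D2:**
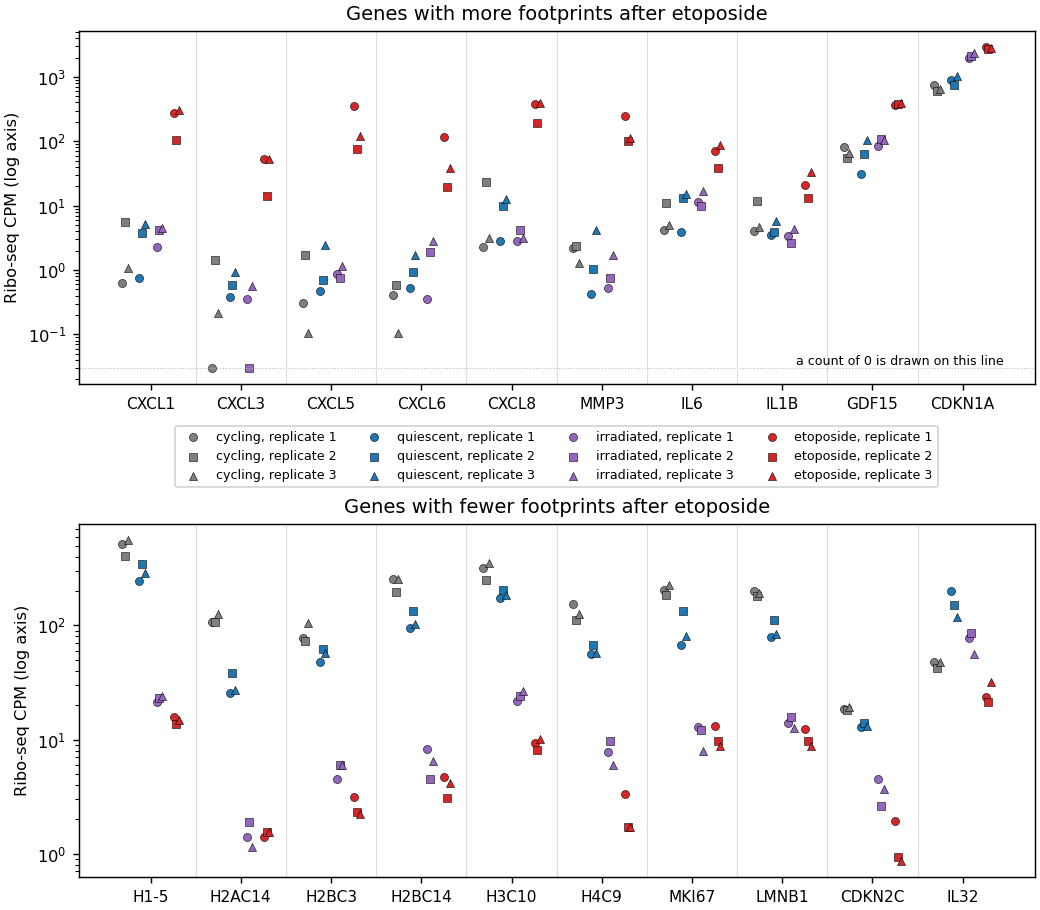
Ribo-seq CPM (log axis) of 20 genes in each cycling, quiescent, irradiated and etoposide library; marker shapes show replicates. In the upper plot each etoposide library lies above each quiescent library, with CXCL5 at 75.5 to 348 CPM against 0.473 to 2.46 CPM, and in the lower plot it lies below, with H1-5 at 13.8 to 15.9 CPM against 244 to 343 CPM.

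CXC chemokines were among the genes with the strongest rises, with CXCL5 the highest of all genes tested. These secreted proteins, several of which draw in neutrophils, are a core of the SASP. The list held 19 chemokines, of which 10 had enough counts for the test. The filter lets in genes high in 1 state alone, so these counts can favour members high after etoposide. Of the 10 tested, 9 were higher and none was lower, with a median of 4.53, which was 3.15 without etoposide replicate 1. With no filter on low counts, 14 members were called higher. CXCL5 (ENSG00000163735) had 0.473, 0.692 and 2.46 CPM in quiescent and 348, 75.5 and 120 CPM in etoposide cells (7.21 ± 0.74, adjusted p = 1.54e-05). CXCL1 had 0.757, 3.81 and 5.12 CPM against 275, 103 and 308 CPM (6.16 ± 0.68, adjusted p = 1.95e-05). CXCL8, interleukin 8, had 2.84, 9.69 and 12.8 CPM against 383, 195 and 387 CPM (5.25 ± 0.71, adjusted p = 1.00e-04), and DESeq2 did not call it. The lowest etoposide value of each gene was many times the highest quiescent value, while the etoposide libraries differed among themselves, replicate 2 being the lowest for these 3 genes. CXCL3 had 0.378, 0.577 and 0.921 CPM against 53.5, 13.98 and 53.5 CPM (5.98 ± 0.78, adjusted p = 7.49e-05). CXCL6 had 0.520, 0.923 and 1.69 CPM against 118, 19.7 and 38.1 CPM (5.80 ± 0.68, adjusted p = 3.18e-05). The change of CXCL5 was 6.33 without etoposide replicate 1 and 8.26 without quiescent replicate 3, and that of CXCL6 was 4.78 without etoposide replicate 1. The other members called were CCL7 (3.81), CXCL10 (3.43), CCL2 (2.63) and CXCL16 (1.78), the last not called without quiescent replicate 1. CXCL12, a chemokine that fibroblasts make in homeostasis, was at -0.52 (adjusted p = 0.271), and was called lower without quiescent replicate 1 (-0.84). In irradiated cells the list summed to 59.5 to 75.0 CPM, and in etoposide cells to 660 to 1591 CPM, and 8 of the 10 genes were higher after etoposide than after irradiation.

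Among them, 6 CXC genes (CXCL1, CXCL3, CXCL5, CXCL6, CXCL8 and CXCL10) sit within chr4:73740569-76023497 (GRCh38.p14). Their promoters are known to bind NF-kB, the transcription factor of inflammation, and a short core of its site, GGNNTTTCC (reverse GGAAANNCC), was searched in the same 250 bases. It was in 6 of 8 chemokine promoters (75%), those of CXCL1, CXCL3, CXCL5, CXCL6, CXCL8 and CXCL10, and in 577 of 9686 promoters of tested genes (5.96%). The core was in none of the 9 H2B promoters. The windows of the 5 most raised genes are shown so that the sites, in capitals, can be compared.
CXCL1 (chr4:73869293-73869392, plus strand): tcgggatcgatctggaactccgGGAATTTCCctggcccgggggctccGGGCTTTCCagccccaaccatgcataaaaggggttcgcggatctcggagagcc
CXCL3 (chr4:74038690-74038789, minus strand): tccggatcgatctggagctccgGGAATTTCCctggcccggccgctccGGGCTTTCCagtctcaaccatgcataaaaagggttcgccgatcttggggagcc
CXCL5 (chr4:73998714-73998813, minus strand): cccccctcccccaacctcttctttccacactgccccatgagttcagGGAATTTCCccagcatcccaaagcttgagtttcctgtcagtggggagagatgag
CXCL6 (chr4:73836543-73836642, plus strand): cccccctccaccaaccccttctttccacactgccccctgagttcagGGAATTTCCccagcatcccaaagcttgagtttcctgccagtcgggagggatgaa
CXCL8 (chr4:73740432-73740531, plus strand): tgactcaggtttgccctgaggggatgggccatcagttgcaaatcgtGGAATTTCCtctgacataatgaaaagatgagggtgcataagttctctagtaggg
CXCL1 and CXCL3 each carry 2 matches in near-identical windows, and CXCL5 and CXCL6 share a near-identical window with 1 match. The match nearest the start site lies 53 bases before it in CXCL1 and CXCL3, and 90, 89 and 91 bases before it in CXCL5, CXCL6 and CXCL8. Whether footprints of similar members can be assigned to either was not tested.

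Other SASP cytokines were raised less evenly. Of 14 interleukins and cytokines tested, 6 were higher and 2 were lower, with a median of 1.19, and the same counts were called without quiescent replicate 1. IL6 had 3.83, 13.3 and 15.2 CPM in quiescent and 71.2, 39.0 and 86.3 CPM in etoposide cells (2.60 ± 0.48, adjusted p = 9.76e-04). IL1B had 3.55, 3.92 and 5.68 CPM against 20.8, 13.2 and 33.4 CPM (2.35 ± 0.42, adjusted p = 7.85e-04). IL33, an alarmin stored in the nucleus, had 0.237, 0.0577 and 0.102 CPM against 7.87, 3.57 and 6.58 CPM (5.31 ± 0.57, adjusted p = 1.95e-05; 5.95 without quiescent replicate 1). These were low in every quiescent library. IL1A, the membrane-bound cytokine often placed at the head of the SASP, had 1.75, 1.79 and 2.40 CPM against 1.75, 1.40 and 3.98 CPM, and at 0.25 ± 0.41 it missed the threshold (adjusted p = 0.671). IL32 went the other way, with 199, 152 and 118 CPM against 23.6, 21.3 and 31.7 CPM (-2.62 ± 0.21, adjusted p = 1.13e-06). IL34, a ligand of the CSF1 receptor, was lower too (-3.38 ± 0.63, adjusted p = 0.00107). IL32 was also above its cycling level in quiescent cells, by 1.77 on the log2 scale.

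Matrix proteases and their inhibitors rose in 13 of 22 tested members and fell in none, with a median of 1.04 (0.67 without quiescent replicate 1, with 13 higher and 1 lower). MMP3, stromelysin 1, had 0.426, 1.04 and 4.20 CPM in quiescent and 245, 102 and 114 CPM in etoposide cells (6.34 ± 0.73, adjusted p = 2.64e-05), and 7.73 without quiescent replicate 3. MMP10, stromelysin 2, had 0.331, 0.577 and 0.768 CPM against 17.8, 6.68 and 12.3 CPM (4.43 ± 0.44, adjusted p = 1.18e-05). MMP1, interstitial collagenase, did not follow, with 69.0, 182 and 149 CPM against 191, 147 and 172 CPM (0.35 ± 0.26, adjusted p = 0.327). Its footprints were higher after etoposide than after irradiation (2.96, adjusted p = 1.3e-04).

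Of 38 secreted growth factors and binding proteins of insulin-like growth factors, 24 were higher and 1 was lower, with a median of 1.62 (1.31, 23 higher and 1 lower, without quiescent replicate 1). STC1, stanniocalcin 1, had 5.49, 9.63 and 12.8 CPM in quiescent and 83.8, 74.9 and 126 CPM in etoposide cells (3.35 ± 0.30, adjusted p = 2.54e-06). WNT16, a WNT ligand, had 0.0946, 0.750 and 0.461 CPM against 4.72, 6.21 and 4.85 CPM (3.60 ± 0.63, adjusted p = 7.03e-04). IGFBP3 had 5.44, 26.9 and 54.6 CPM against 150, 210 and 142 CPM (2.53 ± 0.52, adjusted p = 0.00222), 2.03 without quiescent replicate 1 and 3.39 without quiescent replicate 3. The spread of IGFBP3 lay on the quiescent side. IGFBP5 had 801, 2081 and 3327 CPM against 3642, 3356 and 3630 CPM, and was not called (0.78 ± 0.32, adjusted p = 0.0793). The member called lower was WNT2 (-1.05 ± 0.36, adjusted p = 0.0344), which was not called without etoposide replicate 2 or 3 or quiescent replicate 2 or 3.

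The NF-kB list had members on both sides. Of 24 NF-kB subunits, feedback genes and related targets tested, 7 were higher and 6 lower, with a median of -0.12. C3, complement component 3, had 1.09, 9.23 and 14.7 CPM in quiescent and 244, 117 and 128 CPM in etoposide cells (4.29 ± 0.61, adjusted p = 1.55e-04; 5.01 without quiescent replicate 3). VCAM1, an adhesion molecule for leukocytes, had 84.0, 227 and 209 CPM against 1035, 956 and 901 CPM (2.48 ± 0.34, adjusted p = 1.09e-04). BIRC3, an inhibitor of apoptosis that feeds back on NF-kB, had 5.54, 5.59 and 2.87 CPM against 1.05, 1.09 and 0.346 CPM (-2.46 ± 0.50, adjusted p = 0.00202). C3 and VCAM1 were thus high, and BIRC3 low, in every etoposide library. The NF-kB precursors NFKB1 (-0.33) and NFKB2 (-0.37) were called lower, and NFKBIZ, a nuclear inhibitor-like protein that NF-kB induces, was higher (2.27). Without etoposide replicate 2, or without quiescent replicate 2, 3 members were called lower. Interferon-stimulated genes were on both sides as well, with 5 higher and 7 lower of 28 tested and a median of -0.32. Their share called was 42.9%, beside 35.5% of all genes. OAS3, a sensor of double-stranded RNA, was lower (-1.38 ± 0.29, adjusted p = 0.00230). Higher members included HERC5 (1.89, not called without etoposide replicate 1 or 3), IFI6 (1.20, not called without etoposide replicate 1 or quiescent replicate 2, and 1.87 without quiescent replicate 3), TRIM22 (0.85) and ISG15 (0.51, not called without etoposide replicate 2 or quiescent replicate 2). Without quiescent replicate 2, 3 members were called higher.

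Targets of YAP, the transcriptional co-activator that cell contact keeps out of the nucleus, were on balance higher in etoposide cells. Of 23 tested, 11 were higher and 3 lower, with a median of 0.64, and the counts were the same without quiescent replicate 1. F3, tissue factor, had 35.7, 104 and 109 CPM in quiescent and 816, 876 and 625 CPM in etoposide cells (3.22 ± 0.33, adjusted p = 9.40e-06). ANKRD1, a nuclear ankyrin repeat protein, had 4.78, 8.36 and 10.3 CPM against 66.5, 58.9 and 32.9 CPM (2.75 ± 0.39, adjusted p = 1.47e-04). CCN2, connective tissue growth factor, had 140, 405 and 676 CPM against 1621, 1312 and 942 CPM (1.67 ± 0.39, adjusted p = 0.00455), and was not called in the fit of the 2 states alone. The members called lower were RBMS3 (-0.83), AJUBA (-0.69) and DOCK5 (-0.36), the last not called without quiescent replicate 1 or 2 or etoposide replicate 1 or 2. The quiescent cells were dense by design, so cell density and drug cannot be told apart in these values.

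Contractile and actin genes leaned lower, with 9 lower and 2 higher of 29 tested and a median of -0.28. The share called, 37.9%, is near the 35.5% of all genes. Without quiescent replicate 1, 16 were lower and 2 higher. MYH10, a non-muscle myosin, had 406, 481 and 445 CPM in quiescent and 222, 185 and 197 CPM in etoposide cells (-1.14 ± 0.12, adjusted p = 8.18e-06). MYLK, the kinase that activates myosin, had 1445, 1571 and 1803 CPM against 869, 832 and 686 CPM (-1.01 ± 0.11, adjusted p = 1.10e-05). SYNPO2, an actin-bundling protein, had 7.62, 9.57 and 11.7 CPM against 49.5, 49.5 and 43.1 CPM (2.30 ± 0.27, adjusted p = 2.64e-05). MYH10 and MYLK were low in every etoposide library and SYNPO2 was high. ACTA2, smooth muscle actin, had 2482, 3536 and 5042 CPM against 2782, 2857 and 1614 CPM, so the states overlapped. Its change of -0.61 ± 0.23 had an adjusted p of 0.0499 and was not called under 10 of 14 other settings, among them without etoposide replicate 1.

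Matrix genes were called in both directions. Of 21 collagens, 5 were higher and 3 lower, with a median of 0.15; the share called, 38.1%, is near the 35.5% of all genes. Without quiescent replicate 1 the median was -0.19, with 5 higher and 9 lower. Without quiescent replicate 3, 9 were higher, and without any 1 of the etoposide libraries, 3 were. The fit of the 2 states alone called none higher and 1 lower. COL15A1, a collagen of basement membranes, had 29.2, 99.7 and 137 CPM in quiescent and 32.0, 19.3 and 24.2 CPM in etoposide cells (-1.82 ± 0.41, adjusted p = 0.00450). COL14A1, which binds collagen fibrils, had 37.6, 99.9 and 137 CPM against 291, 191 and 238 CPM (1.40 ± 0.35, adjusted p = 0.00659), and was not called in the fit of the 2 states alone. COL1A1, the main chain of type I collagen, had 3753, 8942 and 12016 CPM against 6548, 7003 and 6016 CPM and was not called (-0.34 ± 0.27, adjusted p = 0.364), but was called without quiescent replicate 1 (-0.69, adjusted p = 2.9e-04). The etoposide values were close together and quiescent replicate 1 was the lowest of the quiescent libraries for all 3 genes. Of 34 matrix glycoproteins and proteoglycans, 9 were higher and 9 lower, with a median of 0.32. Without quiescent replicate 1, 10 were higher and 12 lower and the median was 0.0038, without quiescent replicate 3, 16 were higher and 5 lower, and in the fit of the 2 states alone 4 were higher and 5 lower. NID2, nidogen 2, had 82.5, 208 and 233 CPM against 586, 631 and 512 CPM (1.72 ± 0.29, adjusted p = 5.41e-04). ELN, elastin, had 8.66, 34.7 and 114 CPM against 8.05, 8.70 and 8.49 CPM (-2.63 ± 0.71, adjusted p = 0.0108), a call that was lost without quiescent replicate 3 (-1.36, adjusted p = 0.0603).

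**Figure D3:**
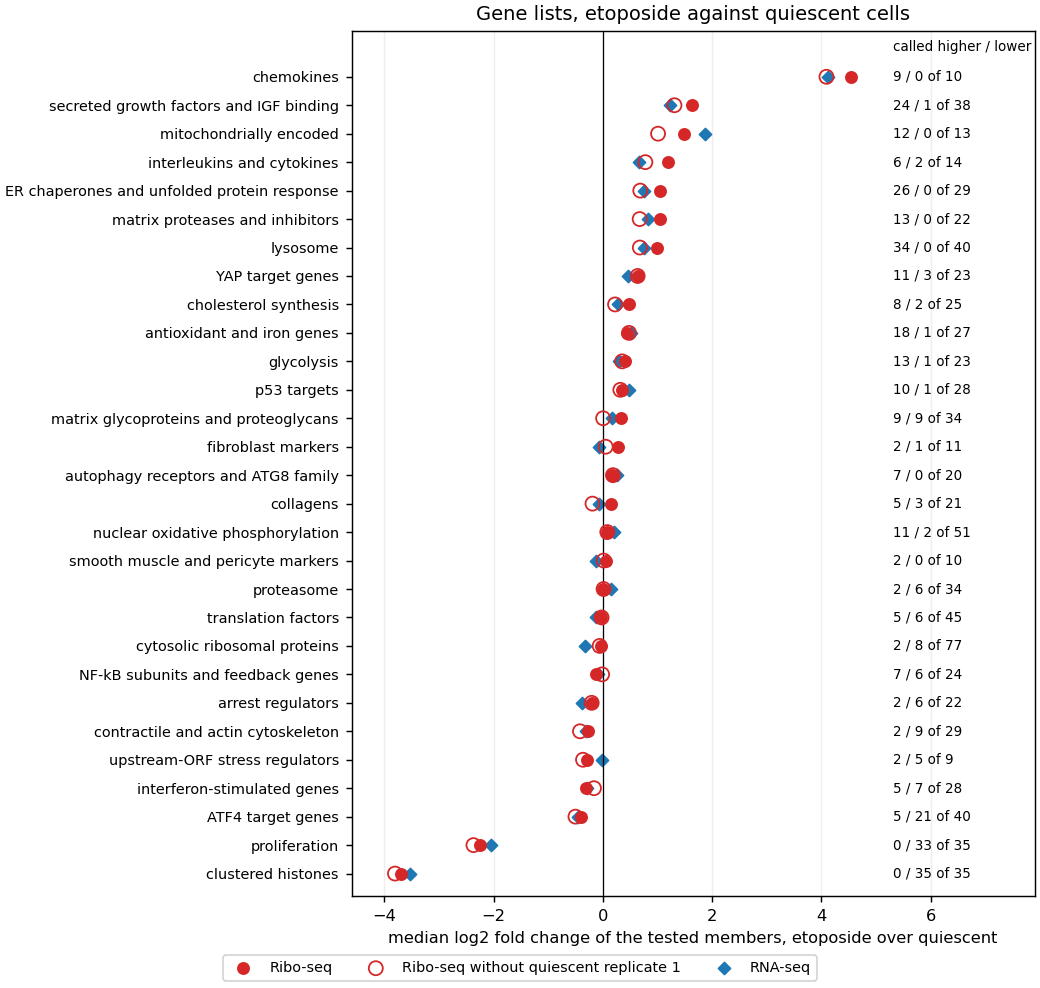
Median log2 fold change of the tested members of 29 gene lists, etoposide over quiescent, in Ribo-seq (filled circles), in Ribo-seq without quiescent replicate 1 (open circles) and in RNA-seq (diamonds), with the members called higher and lower in Ribo-seq at the right. The medians ran from -3.69 for clustered histones to 4.53 for chemokines, and leaving out quiescent replicate 1 moved the ER list from 1.04 to 0.68.

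Genes of the secretory route were raised almost as a block. The ER folds proteins bound for the surface, and its chaperones are induced when folding falls behind, the unfolded protein response. Of 29 ER genes tested, 26 were higher and none was lower, with a median of 1.04. Without quiescent replicate 1, 24 were higher and the median was 0.68, and without etoposide replicate 2, 16 were higher. In a fit of the 2 states alone, whose spread then rests on these 6 libraries, 9 were higher. DNAJB9, a co-chaperone of the lumen, had 8.23, 23.9 and 21.9 CPM in quiescent and 67.7, 75.8 and 73.4 CPM in etoposide cells (2.01 ± 0.30, adjusted p = 2.06e-04). ERO1B, an oxidase that forms disulfide bonds, had 0.804, 2.25 and 1.94 CPM against 8.05, 4.82 and 7.10 CPM (2.00 ± 0.42, adjusted p = 0.00247). HSPA5, the chaperone BiP, had 290, 739 and 890 CPM against 1173, 1249 and 1110 CPM (0.88 ± 0.27, adjusted p = 0.0208), and was not called without etoposide replicate 2 or in the fit of the 2 states alone. All etoposide libraries were above all quiescent libraries for these genes. The 3 members not called were SEC61B (0.15), XBP1 (0.24) and SDF2L1 (0.37). The list summed to 9915 to 11237 CPM in etoposide and 10173 to 11273 CPM in cycling cells, which overlap, against 2578, 6418 and 7089 CPM in quiescent cells and 3555 to 4016 CPM in irradiated cells. Against irradiated cells, 27 of the 29 genes were higher after etoposide. RNA-seq gave 2294, 3650 and 4093 CPM in quiescent and 5223 to 5908 CPM in etoposide cells.

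Lysosomal genes behaved likewise. Of 40 tested, 34 were higher and none lower, with a median of 0.99 (0.68, with 32 higher and 2 lower, without quiescent replicate 1). In the fit of the 2 states alone, 17 were higher and 1 lower. NPC1, which exports cholesterol from lysosomes, had 6.39, 17.1 and 24.7 CPM in quiescent and 76.6, 75.3 and 71.4 CPM in etoposide cells (2.22 ± 0.36, adjusted p = 4.45e-04). GLB1, the beta-galactosidase read out by the usual senescence stain, had 48.9, 85.9 and 81.6 CPM against 143, 152 and 135 CPM (0.99 ± 0.17, adjusted p = 5.37e-04). CTSS, cathepsin S, had 2.51, 5.54 and 4.86 CPM against 21.5, 12.4 and 14.7 CPM (1.92 ± 0.32, adjusted p = 4.41e-04). No library of one state overlapped the other for these genes. The CLEAR core TCACGTGA, the site of the lysosomal regulator TFEB, was in 5 of 26 lysosomal promoters (19.2%) and in 1.81% of all promoters searched. Of 20 autophagy genes, 7 were higher and none lower. This share of 35% stands beside 35.5% of all genes called in either direction and 19.3% called higher. The highest were ATG9A (1.17 ± 0.24, adjusted p = 0.00203), a lipid scramblase of the growing autophagosome, and GABARAPL1 (1.16 ± 0.11, adjusted p = 3.10e-06), which tags its membrane.

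Of the 13 protein-coding genes of mitochondrial DNA, 12 were higher after etoposide, with a median of 1.49 (11 higher and a median of 1.01 without quiescent replicate 1). MT-ND3, a subunit of complex I, had 5.44, 26.6 and 30.3 CPM in quiescent and 97.6, 113 and 97.9 CPM in etoposide cells (2.31 ± 0.43, adjusted p = 9.99e-04). The member not called was MT-ND4 (1.18, adjusted p = 0.0719). Without etoposide replicate 2, or without etoposide replicate 3, 6 members were called, and in the fit of the 2 states alone 2 were. The sums were 170, 739 and 649 CPM in quiescent and 1180, 1607 and 1387 CPM in etoposide cells, and RNA-seq gave 389, 1724 and 1514 CPM against 3479, 5061 and 5017 CPM. The 51 nuclear genes of oxidative phosphorylation had 11 members higher and 2 lower, with a median of 0.08. Their share called, 25.5%, is under the 35.5% of all genes, of which 19.3% were called higher. Those called lower were ATP5F1C (-0.43 ± 0.09, adjusted p = 0.00270), a stalk subunit of ATP synthase, and COX6B1, a subunit of complex IV (-0.37 ± 0.14, adjusted p = 0.0474), the second not called under 8 of 14 other settings, among them without quiescent replicate 1.

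**Figure D4:**
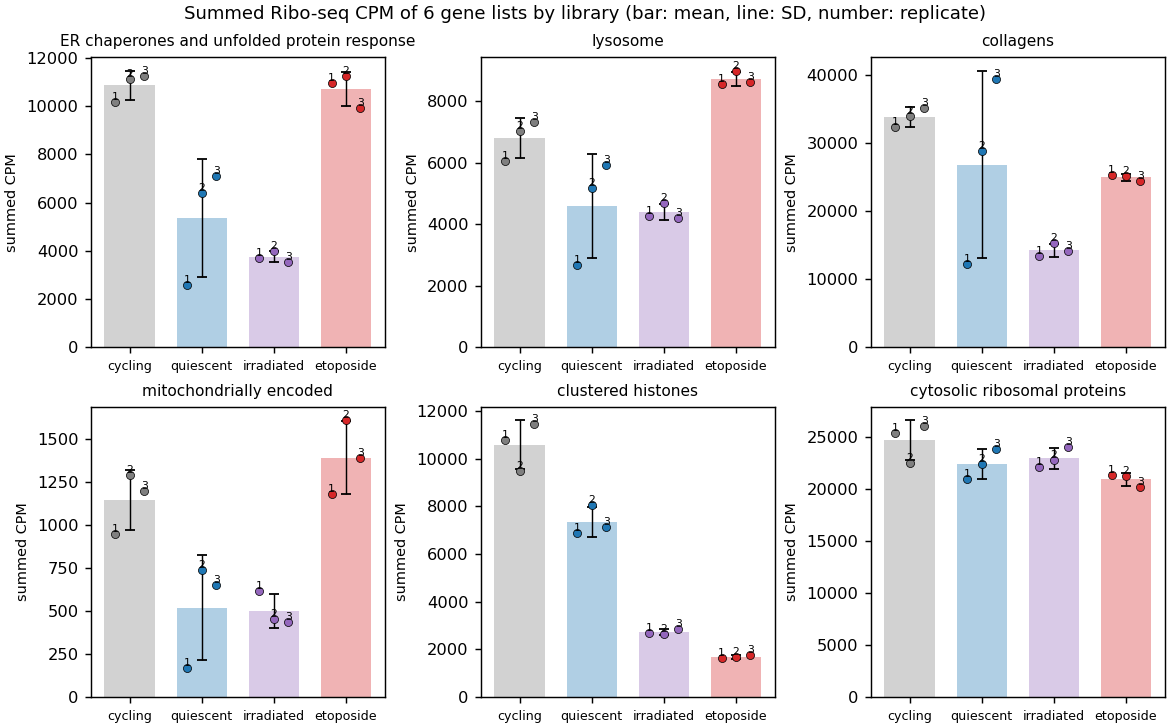
Summed Ribo-seq CPM of 6 gene lists in each of 12 libraries (numbers give the replicate), with bars for the mean and lines for the SD of 3 libraries; axes start at 0. Quiescent replicate 1 is the lowest quiescent library for ER genes (2578 CPM), lysosome (2679 CPM), collagens (12166 CPM) and mitochondrial mRNAs (170 CPM), whereas histones and ribosomal proteins show no such gap.

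Regulators translated through upstream open reading frames report on the integrated stress response, in which phosphorylated eIF2 lowers general initiation and lets ATF4 be made. Of 9 tested, 5 were lower and 2 higher after etoposide. Counts are per gene, so footprints on upstream and main reading frames were added together, and neither can be read alone. ATF4 had 196, 195 and 248 CPM in quiescent and 133, 145 and 158 CPM in etoposide cells (-0.55 ± 0.12, adjusted p = 0.00322). Its mRNA fell as well (-0.48, adjusted p = 0.00122). DDIT3, encoding CHOP, had 27.3, 22.8 and 22.3 CPM against 9.97, 15.5 and 16.5 CPM (-0.78 ± 0.22, adjusted p = 0.0134), and was not called without etoposide replicate 1. Its mRNA was not called (0.04). None of the 9 members was called for translational efficiency, the ratio of footprints to mRNA (ATF4 -0.22, DDIT3 -0.99). The other members called lower were IBTK (-0.38), SLC35A4 (-0.40, not called without etoposide replicate 2 or 3 or quiescent replicate 3) and EIF5 (-0.30, not called without etoposide replicate 1 or 2 or quiescent replicate 1 or 2). Without etoposide replicate 1 or 2, 3 members were called lower. PPP1R15A, the GADD34 subunit that reverses eIF2 phosphorylation, had 50.2, 48.6 and 66.1 CPM against 95.3, 83.1 and 62.2 CPM, so the states overlapped (0.55 ± 0.20, adjusted p = 0.0432, not called under 8 of 14 other settings, among them without quiescent replicate 1). CEBPB, a transcription factor of the SASP, was higher (0.56 ± 0.16, adjusted p = 0.0150), but not without etoposide replicate 3 or quiescent replicate 2. Of 40 ATF4 target genes, 21 were lower and 5 higher, with a median of -0.41. PHGDH, the first enzyme of serine synthesis, had 423, 407 and 543 CPM against 147, 120 and 167 CPM (-1.66 ± 0.13, adjusted p = 8.34e-07). DDIT4, an inhibitor of mTORC1, was lower (-1.55 ± 0.26, adjusted p = 4.81e-04). SLC7A11, the cystine importer, rose from 43.9, 105 and 123 CPM to 204, 260 and 259 CPM (1.41 ± 0.27, adjusted p = 0.00120). The other members called higher were STC2 (1.62), ATF3 (1.34), VLDLR (0.99) and SLC38A2 (0.71), with SLC38A2 not called without etoposide replicate 1 or 2 and VLDLR not called under 8 of 14 other settings, among them without each etoposide library in turn. Without etoposide replicate 1 or 2, 3 members were called higher.

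The translation machinery changed little. Of 77 cytosolic ribosomal proteins, 8 were lower and 2 higher, with a median of -0.04, while in RNA-seq 34 were lower and 1 higher, with a median of -0.34. RPS18 had 564, 693 and 739 CPM in quiescent and 275, 374 and 370 CPM in etoposide footprints (-0.97 ± 0.24, adjusted p = 0.00644). The members called higher were RPL7 (1.84) and FAU (0.46), which was not called under 9 of 14 other settings, among them without each etoposide library in turn. Without quiescent replicate 3, 8 members were called higher. Of 45 translation factors, 6 were lower and 5 higher, but 3 and 2 without etoposide replicate 1 and 3 and 1 without etoposide replicate 2. EIF4EBP1, the repressor of cap binding that mTORC1 switches off, was lower (-0.99 ± 0.18, adjusted p = 9.91e-04), and EIF4A2, a helicase of initiation, was higher (0.50 ± 0.10, adjusted p = 0.00169). EEF2, an elongation factor, had 2408, 2722 and 3368 CPM against 3134, 3009 and 2848 CPM and was not called (0.08 ± 0.12, adjusted p = 0.626). Of 34 proteasome genes, 6 were lower and 2 higher, with a median of 0.00, and 2 were lower without etoposide replicate 2. The shares of ribosomal proteins, translation factors and proteasome genes called in footprints were 13%, 24.4% and 23.5%, under the 35.5% of all genes. PSMB9, a catalytic subunit of the immunoproteasome, was at -1.16 and was not called without etoposide replicate 1 or 2. Ribosomal protein genes have many processed copies, so their counts are uncertain.

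Metabolic genes showed smaller and mostly upward changes. Of 23 glycolysis genes, 13 were higher and 1 lower, with a median of 0.41. SLC16A3, the lactate exporter, had 20.6, 55.6 and 86.9 CPM in quiescent and 217, 259 and 230 CPM in etoposide cells (2.12 ± 0.35, adjusted p = 5.20e-04). SLC2A1, the glucose transporter GLUT1, had 21.1, 67.6 and 90.4 CPM against 212, 316 and 247 CPM (2.11 ± 0.36, adjusted p = 5.66e-04). The member called lower was PFKP, a phosphofructokinase (-0.40 ± 0.14, adjusted p = 0.0386), which was not called under 7 of 14 other settings, among them without etoposide replicate 1. Of 27 antioxidant and iron genes, 18 were higher and 1 was lower (11 higher without etoposide replicate 3). AKR1C1, an aldo-keto reductase induced by NRF2, had 104, 99.1 and 56.9 CPM against 198, 257 and 395 CPM (1.71 ± 0.40, adjusted p = 0.00451). GPX4, which reduces lipid peroxides, was the lower one (-0.57 ± 0.14, adjusted p = 0.00702). Of 25 cholesterol synthesis genes, 8 were higher and 2 lower, a share called of 40% beside 35.5% of all genes. There were 4 lower without quiescent replicate 3, and 5 higher and 1 lower in the fit of the 2 states alone. CYP51A1, lanosterol demethylase, led at 1.97 ± 0.40 (adjusted p = 0.00201; 2.59 without quiescent replicate 3). Those lower were ACAT2 (-0.45) and LSS (-0.35), and ACAT2 was not called without etoposide replicate 3 or quiescent replicate 2.

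Several of the highest changes lay outside these lists. TFPI2, an inhibitor of the tissue factor pathway, had 5.72, 24.0 and 46.5 CPM in quiescent and 952, 773 and 783 CPM in etoposide cells (5.04 ± 0.53, adjusted p = 1.17e-05; 5.83 without quiescent replicate 3). HSD17B2, which inactivates oestradiol and testosterone, had 0.473, 1.10 and 1.28 CPM against 35.7, 25.8 and 25.8 CPM (4.93 ± 0.38, adjusted p = 1.19e-06). IL13RA2, a decoy receptor for interleukin 13, had 0.662, 0.461 and 0.563 CPM against 26.2, 10.7 and 12.99 CPM (4.84 ± 0.44, adjusted p = 5.76e-06). Each etoposide library was far above each quiescent library for these 3 genes. CD36, a scavenger receptor for lipids, had 0.284, 0.404 and 0.461 CPM against 10.5, 10.7 and 10.4 CPM (4.74 ± 0.32, adjusted p = 1.41e-07). ADAMTS19, a secreted metalloprotease, had 0.662, 0.865 and 1.43 CPM against 28.2, 27.3 and 21.3 CPM (4.68 ± 0.34, adjusted p = 3.82e-07). TFAP2B, a transcription factor, had 1.18, 1.04 and 8.75 CPM against 82.9, 171 and 52.5 CPM (4.79 ± 0.84, adjusted p = 8.78e-04), 4.18 without etoposide replicate 2 and 6.50 without quiescent replicate 3. RNA-seq gave it 0 counts in each quiescent library and 0, 1 and 0 counts in the etoposide libraries, so these footprint reads had no matching mRNA signal. The source of the TFAP2B reads was not tested.

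The changes in footprints largely followed those in mRNA. In RNA-seq, 5563 of 13301 genes were called (41.8%), 2811 higher and 2752 lower. Across the 11728 genes tested in both assays, Pearson's r between the log2 fold changes was 0.907; genes are not independent replicates. Of 4162 genes called in Ribo-seq among them, 3260 were called in the same direction in RNA-seq, 6 in the opposite direction, and 896 were not called in RNA-seq, 825 of those with the same sign. MMP3 changed by 6.34 in footprints and 5.90 in RNA-seq, CXCL5 by 7.21 and 7.19, H2BC14 by -4.79 and -5.31, and CDKN1A by 1.65 and 1.51.

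**Figure D5:**
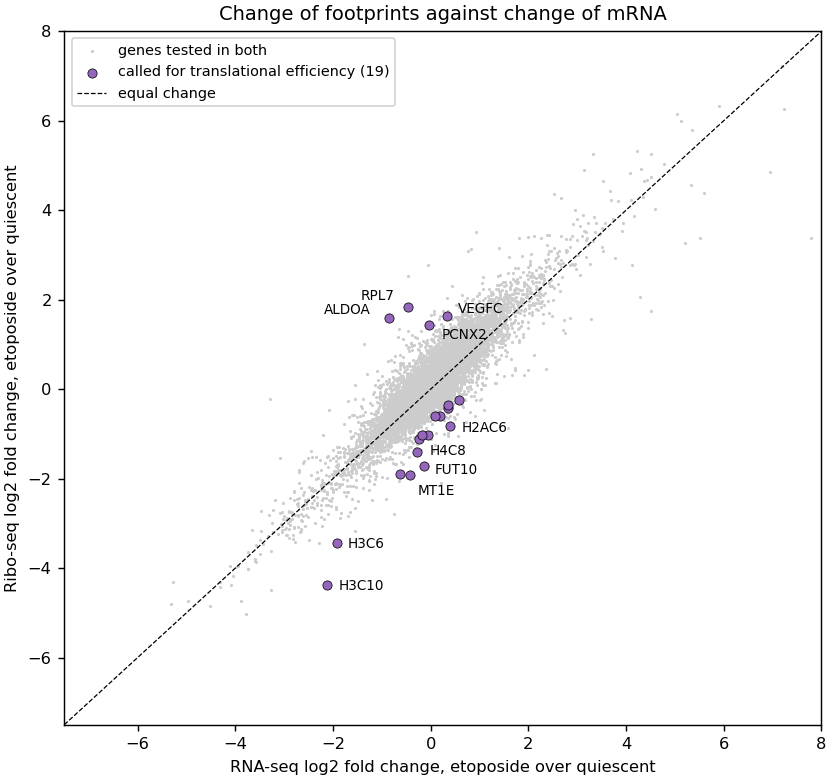
Log2 fold change of each gene in Ribo-seq (y axis) against RNA-seq (x axis), etoposide over quiescent, for genes tested in both; the dashed line marks equal change. The points follow the line (r = 0.907), and the 19 genes called for translational efficiency lie off it, 15 below and 4 above.

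Translational efficiency, the ratio of footprints to mRNA, differed for 19 of 11728 genes (0.162%) in a test of the interaction of assay and state, 4 higher and 15 lower after etoposide. At an unadjusted p under 0.05 there were 1013 genes, and DESeq2 called 83. Same-numbered etoposide Ribo-seq and RNA-seq libraries deviated together (correlations of 0.14, 0.38 and 0.20), the quiescent ones less evenly (0.577, 0.105 and 0.0079), and with a replicate block 12 genes were called. Clustered histones led the falls. H3C10 footprints went from 175, 204 and 187 CPM to 9.27, 8.08 and 10.0 CPM, and its mRNA from 47.5, 67.8 and 31.1 CPM to 9.89, 10.9 and 12.9 CPM, a change in efficiency of -2.41 ± 0.29 (adjusted p = 7.3e-05). For H2AC6 the footprints fell (-0.83) while the mRNA rose (0.41), a change of -1.40 ± 0.20 (adjusted p = 8.0e-04). H3C6, H4C8, H2BC21 and H1-2 were the other histone genes called, at -1.68, -1.28, -1.43 and -1.04. Whether the RNA-seq captured all forms of histone mRNA alike in both states was not tested. Histone copies are also near-identical, so the efficiency values of histone genes are uncertain. FUT10, a fucosyltransferase, kept its mRNA at 18.1, 20.4 and 22.2 CPM against 18.1, 19.4 and 17.8 CPM, while its footprints went from 32.98, 34.9 and 30.0 CPM to 8.57, 9.79 and 11.3 CPM (-1.75 ± 0.22, adjusted p = 1.6e-04). MT1E, a metallothionein, fell in footprints from 237, 196 and 213 CPM to 43.4, 56.5 and 69.6 CPM with a smaller fall in mRNA (-0.42), a change in efficiency of -1.68 ± 0.34 (adjusted p = 0.041). VEGFC, a growth factor of lymphatic vessels, rose in footprints from 15.5, 32.0 and 34.1 CPM to 90.3, 91.5 and 70.1 CPM with a smaller rise in mRNA (0.33), a change of 1.16 ± 0.24 (adjusted p = 0.04997). MT1E and VEGFC were each called under 6 of 20 other settings. RPL7 had 4.40, 5.13 and 7.57 CPM in quiescent and 21.9, 19.1 and 20.3 CPM in etoposide footprints against 1612 to 1975 CPM and 1271 to 1364 CPM in RNA-seq (2.15 ± 0.21, adjusted p = 2.9e-06). RPL7 has many processed copies, and short footprints that match several copies are in no gene's count, so its value is uncertain. ALDOA, aldolase A, was at only 5.59 to 32.9 CPM in footprints and 4.74 to 15.6 CPM in RNA-seq; reads that overlap several gene models are left out of the counts, and whether this affected ALDOA was not tested. H3C10, FUT10, H2AC6 and RPL7 were called under all 20 other settings tried for efficiency. None of the 10 chemokines and none of the 29 ER genes was called for efficiency, where the lists' medians were 0.41 and 0.22. The RNA-seq and footprint files hold gene lists of unequal length, and whether gene models differ between them was not tested.

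Marker genes were summed as CPM of all gene counts, without TMM scaling. The 11 fibroblast markers, all with counts in each library, summed to 29489 to 30548 CPM in etoposide and 19750 to 36965 CPM in quiescent cells, 2 of them called higher (LUM, DCN) and 1 lower (S100A4). Without quiescent replicate 1, 3 were lower, without quiescent replicate 3, 4 were higher, and DCN was not called in the fit of the 2 states alone. Of 10 epithelial markers, 3 had no count in any of the 6 libraries (KRT5, SFTPC and SCGB1A1), 3 were tested, and the list summed to 10.3 to 13.8 CPM against 23.7 to 44.7 CPM, with KRT19 lower (-2.26) and KRT7 higher (1.90). The endothelial list summed to 60.7 to 82.3 CPM against 18.2 to 33.7 CPM, mainly TEK, the angiopoietin receptor, which was higher (1.56 ± 0.34, adjusted p = 0.00290), while 7 of 10 members had under 10 counts in each library. VWF, the other member tested, had 51, 20 and 39 counts in quiescent and 1, 7 and 6 counts in etoposide libraries and was not called (-1.25, adjusted p = 0.122), and ROBO4 had 12, 21 and 9 counts against 1, 4 and 2 counts, without correction for depth. The immune list summed to 2.00 to 3.41 CPM against 0.304 to 0.427 CPM, and CD14, with 2, 1 and 3 counts in quiescent and 8, 15 and 11 counts in etoposide libraries, was its only tested member (4.02). Of 10 smooth muscle and pericyte markers, 2 were called higher, MCAM (1.52) and NOTCH3 (1.29), and none lower, with a median of 0.05. Both calls were lost in the fit of the 2 states alone, which called 1 member lower. The part of other cell types in these values was not tested.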

How the data were processed

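Per the labels, 14 Ribo-seq and 13 RNA-seq libraries of IMR90 cells were made; footprints were size-selected after RNase I digestion, and the RNA kit keeps strand. The authors deposited raw counts per gene for each library, unnormalized, with rows for unmapped and ambiguous reads that were left out here. STAR 2.7.10b, DESeq2 1.36.0, bcl2fastq and hg38 are named in the submitters' processing notes, without their roles. Sense-strand counts were used: the forward column for Ribo-seq and the reverse column for RNA-seq. The Ribo-seq files of the 4 states used here list 60664 gene IDs and the RNA-seq files 62703, and 60534 are in all files. The 19324 shared IDs that are protein coding in the RefSeq gene table, matched by symbol, were kept.

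Counts were tested with edgeR 4.0.16 (R 4.3.3): TMM scaling, a filter on low counts by group, and a robust quasi-likelihood F test with Benjamini-Hochberg adjustment over all genes tested. A gene was called at an adjusted p under 0.05. The footprint fit held all 14 Ribo-seq libraries, the RNA-seq fit all 13, and translational efficiency was the interaction of assay and state over all 27, so the spread is shared between states. CPM are TMM-scaled counts per 1000000 counts. The test was tried on simulated counts. DESeq2 1.42.0, other scaling, filters, strands, sample sets, thinning, a replicate block and leaving out each library were the alternatives.

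Named genes were the 12 highest and 12 lowest called genes at 10 CPM or more whose groups did not overlap, up to 2 called genes per list and direction, up to 8 efficiency calls per direction, a fixed set of senescence genes, and genes behind counts of 5 or fewer. Other list members named, such as the remaining chemokines, H2BC7 and the NF-kB precursors, were chosen after their values were seen. The members and gene lists were chosen with earlier results of these data known. Promoter sequences are from RefSeq (GRCh38.p14), found for 9686 of 11779 tested genes. Some genes are not reported here.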

Additional observations from a re-analysis of the deposited data

Results flagged for a closer look

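The effect of etoposide against quiescence differed between Ribo-seq and RNA-seq for 19 genes by the interaction test of edgeR. These are the genes called for translational efficiency, and the values of the histone genes among them are uncertain. The log2 change in efficiency was negative for H3C10 (-2.41), FUT10 (-1.75), H3C6 (-1.68), MT1E (-1.68), H2BC21 (-1.43), H2AC6 (-1.40), H4C8 (-1.28), RAB8B (-1.13), H1-2 (-1.04), DUT (-1.01), IKBKG (-1.0), TARBP2 (-0.96), NCS1 (-0.94), HSD17B10 (-0.86) and MRPL27 (-0.84). It was positive for VEGFC (1.16), PCNX2 (1.32), RPL7 (2.15) and ALDOA (2.30). H3C6 was called under 19 of 20 other settings, H4C8 under 17, H2BC21 and HSD17B10 under 14, and TARBP2 under 2.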

How the results depend on the processing

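The count of footprint calls ranged from 3093 to 5263 and that of RNA-seq calls from 4160 to 6026 over the alternatives, all within 1.5 times the values reported. The count of efficiency calls moved more: 83 with DESeq2, 31 without the thapsigargin libraries, 12 with the quiescent libraries thinned, 6 with DESeq2 size factors, 5 with the 2 states alone, and 5 to 59 on leaving out 1 library, the highest without quiescent Ribo-seq replicate 3. For etoposide against irradiated cells, 4142 genes were called with the 2 states alone and 1504 to 1988 on leaving out 1 library, the lowest without irradiated replicate 1. Same-numbered etoposide and quiescent libraries had correlations of deviations of 0.01, 0.10 and -0.05 in Ribo-seq and -0.16, 0.10 and -0.18 in RNA-seq, so the numbers do not pair the states. With a replicate block, 4254 footprint, 5562 RNA-seq, 2579 etoposide against irradiated and 12 efficiency calls were made. The sign turned for 4 genes that were not called. The CDKN2A Ribo-seq log2 fold change was -0.031 with no filter on low counts and -0.13 to 0.29 on leaving out 1 library, below 0 without etoposide replicate 1 or quiescent replicate 1 or 2. The IL1A Ribo-seq log2 fold change was -0.34 to 0.50, the lowest without etoposide replicate 3. The COL1A1 Ribo-seq log2 fold change was -0.69 to 0.040, the highest without quiescent replicate 3. The EEF2 Ribo-seq log2 fold change was -0.028 to 0.22, the lowest without quiescent replicate 1. The causes were not tested. Of 2291 values of named genes under other settings, 2123 kept direction and call, 157 lost the call and 4 gained it. The depth of 6159333 to 6980115 counts in the etoposide libraries limits genes of few counts, and 3 libraries a state limit the precision of every value.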
